A study of Homo sapiens with 8 samples.

Results

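The receptors described here are 10 through which myeloid cells receive growth factor and cytokine signals: CSF3R, CSF2RA, CSF2RB, IL3RA, IL6R, IL6ST, IL1RAP, IFNGR1, IFNGR2 and IFNAR1. They were named by symbol, with earlier results of these data known, and each symbol lay on 1 row of a count table of 57992 genes. Of the 10, 8 had reads and passed the filter on low counts, and CSF2RA and IL3RA were listed at 0 in every library. The series sequenced mRNA of KG1A and U937, a pair of human acute myeloid leukaemia lines: KG1A is an immature, CD34-positive line and U937 a monoblast-like one. Each line was given vehicle (PBS) or a 10 mM dose of a compound that the labels name dG, with 2 libraries for each line and treatment and 8 in all. All cultures, vehicle included, grew in RPMI medium with dialyzed serum. Exposure time is not in the labels. Nor is it stated there whether a pair of replicates came from independent cultures, and p-values therefore reflect the scatter of these libraries, perhaps technical only. The series' title places dG in the question of whether disturbed deoxynucleotide pools release a block in leukaemic differentiation.

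Most of these receptors have no kinase of their own. A ligand draws receptor chains together, the JAK kinases bound to their tails become active, and STAT transcription factors are phosphorylated and move to the nucleus. CSF3R binds G-CSF, the main growth factor of neutrophils, and works as a pair of identical chains. CSF2RA and IL3RA are the ligand-binding chains for GM-CSF and IL-3 and share the signalling chain CSF2RB. IL6R binds IL-6 and signals through IL6ST, a chain also used by LIF, oncostatin M, IL-11 and IL-27. IL1RAP is the co-receptor of the IL-1 and IL-33 receptors and, unlike the others, signals through MYD88 and IRAK kinases. IFNGR1 and IFNGR2 form the interferon gamma receptor, and IFNAR1 joins IFNAR2 in the receptor for type I interferons.

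Library totals ran from 21053724 to 31135338 counts. Replicates correlated at 0.998 or more across genes on a log2 scale and their chi-square per gene, 1.8 to 2.2, exceeded that of counting error. CD34 lay at 931 CPM (read counts scaled to a TMM-adjusted library size) in KG1A PBS and 0.265 CPM in U937 PBS. U937 PBS held CTSG at 499, CD4 at 265, PRTN3 at 197, AZU1 at 152 and ELANE at 102 CPM, all at or under 0.172 CPM in KG1A PBS, but MPO, a defining myeloid granule gene, was near 0 in both lines (0.0171 and 0.162 CPM). The 6 erythroid markers did not exceed 0.0243 CPM in any group mean. Of 7 epithelial and fibroblast markers, 6 did not exceed 0.0458 CPM in any group mean, and COL1A1 went from 1.31 to 4.40 CPM in U937 and was not read in KG1A. Of 5 lymphoid markers tested, 2 were higher in dG in KG1A, among them NCAM1 (12.2 to 38.2 CPM), and 2 were lower in U937, and CD3D lay at 95.0 CPM in KG1A PBS. The part of these markers in the results below was not tested. In a bulk library, fewer cells that express a gene and less of its RNA per cell cannot be told apart.

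CSF2RA and IL3RA were not measurable in these files. Both genes lie in the first pseudoautosomal region, a stretch of identical sequence on X and Y, and GENCODE 29 lists 2 copies of each, 1 on X and 1 on Y. The deposited rows place CSF2RA at chrX:1268800-1310381 and IL3RA at chrX:1336616-1382689 (GRCh38). The table held 34 genes on X from its start to the end of CD99, and over all 8 libraries these had 5 counts in total, every one in PLCXD1. SLC25A6, an adenine nucleotide carrier of mitochondria, and CD99, a surface protein of leukocytes, were listed at 0 there too, while 1124 of the 2325 genes on the rest of X had reads. How reads with several matching places were treated is not given in the sources used here, and its part in these zeros was not tested. The zeros of CSF2RA and IL3RA thus give no level for the GM-CSF and IL-3 receptors in either line.

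Levels were compared between genes per length, as the RPKM values of the authors (reads scaled by exon length and library size). IL6R was the highest of the 8 in KG1A PBS, at 36.6 and 37.6 RPKM, followed by IFNGR1 at 21.3 and 22.9 and IFNAR1 at 15.1 and 15.8. IFNGR2 (11.2 and 11.5 RPKM) and IL6ST (10.8 and 11.4 RPKM) came next and overlapped each other. IL1RAP stood at 3.25 and 3.28 RPKM and CSF3R at 1.66 and 1.89 RPKM, and no read of CSF2RB was counted. In KG1A dG, IL6ST stood next after IFNGR1, CSF3R lay above IL1RAP, and only IFNGR2 and IFNAR1 overlapped. U937 PBS had the same leading pair, IL6R (37.3 and 39.2 RPKM) and IFNGR1 (28.9 and 31.0 RPKM), but there IL6ST was the lowest of the 8, at 2.0 and 2.2 RPKM, below IL1RAP (3.48 and 3.50 RPKM) and CSF2RB (4.02 and 4.08 RPKM). In U937 dG, IFNGR1 took the first place, at 55.5 and 61.2 RPKM, above IL6R at 34.6 and 36.7 RPKM. No neighbours in the order overlapped in either U937 group.

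**Figure D1:**
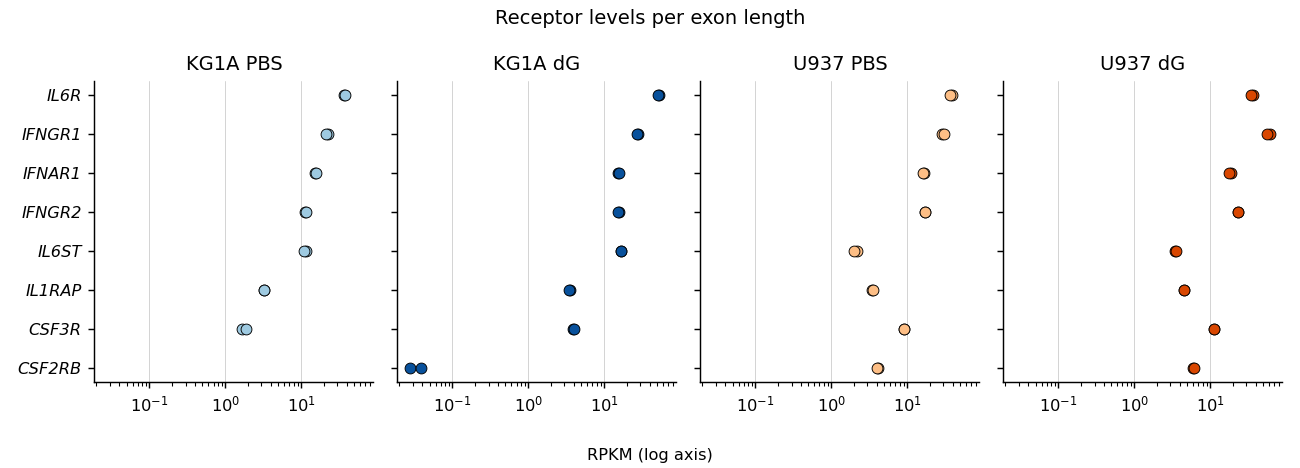
RPKM of the 8 measured receptor genes on a log axis, 1 panel per group and 1 point per library; values of 0 (CSF2RB in KG1A PBS) cannot be drawn. IL6R and IFNGR1 lead in every panel, IL6ST is lower in the U937 panels, and CSF2RB lies at 0.0276 and 0.0391 RPKM in KG1A dG.

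CSF3R, the G-CSF receptor, had the largest rise in KG1A among the receptors with reads in both groups of that line. Its KG1A levels were 13.8 and 15.7 CPM in PBS and 33.9 and 34.5 CPM in dG, so the groups lay far apart. The log2 fold change was 1.20 ± 0.07 (SE, as after every fold change below), or 2.30-fold (adjusted p = 2.45e-17). Here and below, adjusted p-values are Benjamini-Hochberg values of edgeR's quasi-likelihood test over the 18314 genes tested, with a threshold of 0.05. Each SE is the absolute log2 fold change divided by the square root of that test's F value. Its spread is thus moderated across genes (prior degrees of freedom 31) and is not that of the 2 libraries of a group alone. U937 held more CSF3R to begin with, at 76.4 and 79.1 CPM in PBS, and went to 91.1 and 93.3 CPM in dG, a log2 fold change of 0.25 ± 0.05 (adjusted p = 1.72e-05). The response was larger in KG1A: the U937 effect minus the KG1A effect was -0.96 ± 0.08 (adjusted p = 3.32e-12). Even so, KG1A in dG stayed under the level of U937 in PBS.

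The promoter windows of CSF3R, with the largest KG1A change among the receptors read in both groups of that line, and of IFNGR1, with the largest change in U937, show what sequence lies before these start sites. They are RefSeq windows (GRCh38.p14, 250 bases before to 50 after a start), and 9 of the 10 receptors had at least 1. Capitals mark matches, on either strand, to the core of the PU.1 motif, GAGGAA, and to a core of the C/EBP motif, TTNNGNAA. CSF3R has 2 windows, at chr1:36482864-36483163 and chr1:36483265-36483564, both on the minus strand, and the IFNGR1 window shown is chr6:137219336-137219635, minus strand.
CSF3R, start nearer the gene body: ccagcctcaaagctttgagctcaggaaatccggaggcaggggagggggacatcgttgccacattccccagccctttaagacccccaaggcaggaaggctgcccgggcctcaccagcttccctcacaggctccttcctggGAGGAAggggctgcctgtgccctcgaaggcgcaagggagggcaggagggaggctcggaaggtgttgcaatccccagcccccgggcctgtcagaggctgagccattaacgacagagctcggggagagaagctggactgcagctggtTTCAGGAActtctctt
CSF3R, start farther upstream: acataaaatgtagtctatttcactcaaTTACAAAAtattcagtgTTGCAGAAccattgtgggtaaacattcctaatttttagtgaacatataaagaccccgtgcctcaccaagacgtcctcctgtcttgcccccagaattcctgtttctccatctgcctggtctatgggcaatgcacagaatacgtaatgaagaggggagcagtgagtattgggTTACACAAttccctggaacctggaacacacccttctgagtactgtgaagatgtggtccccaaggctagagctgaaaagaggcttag
IFNGR1: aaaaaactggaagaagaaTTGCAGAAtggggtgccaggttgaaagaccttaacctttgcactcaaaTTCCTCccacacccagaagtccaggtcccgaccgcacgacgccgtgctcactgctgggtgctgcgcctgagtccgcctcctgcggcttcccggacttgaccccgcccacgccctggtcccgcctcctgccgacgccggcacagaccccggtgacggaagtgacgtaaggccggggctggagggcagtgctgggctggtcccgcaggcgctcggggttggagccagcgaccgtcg
The first CSF3R window holds 1 GAGGAA, 111 bases before the start, and 1 C/EBP core. The other holds 3 C/EBP cores and no GAGGAA, and the IFNGR1 window shown holds 1 of each, while a second IFNGR1 window, chr6:137219147-137219446, holds neither. Such matches are common: 27.9% of the 35116 windows in the table hold GAGGAA and 36.8% hold TTNNGNAA. A STAT element, TTCNNNGAA, which 7.66% of windows hold, occurred in no window of the measured receptors. Neither did an interferon response core (GAAA, any 2 bases, GAAA), found in 3.57% of windows. CSF2RB is not among the windows searched. A match is a description of the letters only. SPI1, which encodes PU.1 and was named for that motif after its values were seen, lay at 0.276 and 0.524 CPM in KG1A PBS and dG (0.97 ± 0.45, adjusted p = 0.0708). CEBPA was far more abundant there, at 15.3 and 17.8 CPM (0.22 ± 0.07, adjusted p = 0.0140), but its call ended under 10 of 18 alternatives (adjusted p = 0.00115 to 0.427 over the alternatives), also without KG1A PBS replicate 1, KG1A dG replicate 1 or either U937 dG replicate.

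CSF2RB, the signalling chain shared by the GM-CSF, IL-3 and IL-5 receptors, was a U937 gene in these data. U937 held 20.6 and 20.6 CPM in PBS and 28.7 and 30.1 CPM in dG, a log2 fold change of 0.51 ± 0.07 (adjusted p = 1.66e-07) with no overlap of the groups. KG1A had 0 and 0 counts in PBS, and 4 and 5 counts in dG (0.142 and 0.202 CPM). With a floor of 3 counts put in place of the zeros of the PBS group, the ratio of dG to PBS was 2.97. On that floor the ratio of U937 PBS to KG1A PBS was 359. The counting error of the 9 dG reads is not in the first ratio, which is therefore no lower bound. The gene passed the filter only through U937. The edgeR test called the KG1A rise (adjusted p = 0.00244), but limma on RPKM with a pseudocount of 1 did not (adjusted p = 0.288, and 0.00233 to 0.288 over the 17 alternatives with a value). The KG1A dG level was 0.579% of that in U937 dG. The granule genes ELANE, AZU1, PRTN3 and LYZ, all abundant in U937, stood at 0 to 0.0195% of their U937 dG level in the same libraries, CTSG at 0.108% and CD33 at 1.35%. In PBS the KG1A level was 0.402% of the U937 level for LYZ, 0.0345% for CTSG and 0.114% for CD33. It was 0 for CSF2RB, ELANE, AZU1 and PRTN3. The origin of the CSF2RB reads in KG1A was not tested.

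IL6R and IL6ST, the binding and signalling chains for IL-6, rose together in KG1A. IL6R went from 233 and 239 CPM to 347 and 341 CPM, a log2 fold change of 0.55 ± 0.03 (1.46-fold, adjusted p = 4.23e-16). IL6ST went from 105 and 98.5 CPM to 158 and 162 CPM (0.66 ± 0.04, 1.58-fold, adjusted p = 7.21e-16). In both genes the dG libraries lay well above the PBS libraries. The ratio of IL6R to IL6ST in RPKM moved little in KG1A, from 3.2 and 3.49 in PBS to 3.17 and 3.03 in dG.

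In U937 the chains of the IL-6 receptor parted. IL6ST rose from 20.4 and 19.0 CPM to 31.0 and 32.2 CPM, by 0.68 ± 0.07 (1.60-fold, adjusted p = 1.52e-11), about the same change as in KG1A from a level 5.13 times lower. IL6R was at 255 and 246 CPM in PBS and 229 and 219 CPM in dG, a log2 fold change of -0.16 ± 0.04 (adjusted p = 1.08e-04). That fall depended on the scaling: 6 of 18 alternatives ended the call (adjusted p = 2.39e-07 to 0.23), among them DESeq2's size factors (-0.07) and leaving out U937 dG replicate 2 (-0.07, adjusted p = 0.230). The difference between the lines in the IL6R effect was -0.71 ± 0.05 (adjusted p = 7.69e-15), and it was called under all 17 alternatives with a value. For IL6ST the difference was 0.02 ± 0.08 (adjusted p = 0.927). The ratio of IL6R to IL6ST in U937 fell from 18.0 and 18.7 in PBS to 10.6 and 9.79 in dG. Ratios carry no test, since an exact two-sided permutation test of 2 against 2 cannot give a p below 0.333.

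No GENCODE 29 exon of another gene overlapped IL6R, CSF3R, CSF2RB, IFNGR1 or IFNAR1. IL6ST shares 8.58% of its exon bases with AC008914.1 on the other strand, which had 17 counts in all. IL1RAP shares 4.63% with AC108747.1, which had 0. IFNGR2 shares 12.8% with TMEM50B on the other strand, which had 8158 counts over all libraries, and since the strand setting is not given, IFNGR2 values are uncertain to that extent.

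IL1RAP, the IL-1 co-receptor, was called higher in both lines, by small amounts. U937 went from 40.5 and 41.4 CPM to 51.4 and 51.2 CPM, a log2 fold change of 0.33 ± 0.05 (adjusted p = 1.29e-06). KG1A went from 37.0 and 37.2 CPM to 41.7 and 41.3 CPM, at 0.16 ± 0.05 (adjusted p = 0.0124). The groups did not overlap in either line, yet the KG1A call ended under 11 of 18 alternatives (adjusted p = 0.0104 to 0.35), including library size alone (0.10) and leaving out KG1A PBS replicate 1 or 2, KG1A dG replicate 1, or U937 dG replicate 1 or 2 (adjusted p = 0.0646 to 0.176). The test of the difference between the lines gave 0.16 ± 0.08 (adjusted p = 0.0771), which 8 of 17 alternatives called (adjusted p = 0.00184 to 0.208).

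The ligand-binding partner of IL1RAP moved more than IL1RAP itself. IL1R1, the IL-1 receptor, rose in KG1A from 6.48 to 15.9 CPM (1.29 ± 0.12, adjusted p = 2.99e-11) and in U937 from 0.959 to 2.47 CPM (1.30 ± 0.28, adjusted p = 9.8e-05). The U937 libraries were low and uneven, at 1.16 and 0.757 CPM in PBS and 1.60 and 3.35 CPM in dG. In U937 1 of 18 alternatives ended the IL1R1 call (adjusted p = 0.0957, unfiltered RPKM). The ratio of IL1R1 to IL1RAP in RPKM was 0.277 and 0.293 in KG1A PBS and 0.598 and 0.656 in KG1A dG, against 0.0299 to 0.107 over the U937 libraries. IL1RL1, the IL-33 receptor, fell in KG1A from 1.11 to 0.565 CPM (-0.94 ± 0.33, adjusted p = 0.0178) and was not read in U937. That call was lost under 4 of 18 alternatives (adjusted p = 0.00426 to 0.259), including those without KG1A PBS replicate 1 or either KG1A dG replicate (0.0597 to 0.169). IL1R2, the decoy receptor, rose in U937 from 0.174 to 0.480 CPM (1.43 ± 0.53, adjusted p = 0.0193), a call lost under 5 of 18 alternatives (adjusted p = 0.00451 to 0.169), including each that left out 1 U937 library (0.0760 to 0.107).

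IFNGR1 and IFNGR2, the chains of the interferon gamma receptor, rose in both lines. IFNGR1, the ligand-binding chain, had the largest change of the set in U937, from 74.9 and 81.6 CPM to 152 and 140 CPM (0.91 ± 0.05, 1.87-fold, adjusted p = 5.67e-19). In KG1A it went from 58.0 and 53.8 CPM to 74.2 and 72.1 CPM (0.39 ± 0.05, 1.31-fold, adjusted p = 5.33e-08). The dG libraries were higher than the PBS libraries in both lines, and the U937 effect exceeded that in KG1A by 0.51 ± 0.07 (adjusted p = 1.1e-07).

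IFNGR2, the chain that brings JAK2 to the complex, rose in KG1A from 32.8 and 33.4 CPM to 48.5 and 46.5 CPM (0.52 ± 0.05, adjusted p = 2.39e-10). In U937 it rose from 51.2 and 52.4 CPM to 67.5 and 67.6 CPM (0.38 ± 0.05, adjusted p = 1.33e-08). Here the difference between the lines was -0.14 ± 0.07 (adjusted p = 0.132). The ratio of IFNGR1 to IFNGR2 in RPKM rose in U937, from 1.69 and 1.79 to 2.60 and 2.38, and in KG1A it was 2.03 and 1.86 in PBS against 1.76 and 1.79 in dG.

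IFNAR1, a chain of the type I interferon receptor, was the flattest of the set. KG1A had 93.9 and 97.8 CPM in PBS and 97.8 and 102 CPM in dG, with the groups overlapping (0.06 ± 0.04, adjusted p = 0.277), and the sign changed with the scaling (-0.008 with library size alone). U937 had 106 and 104 CPM in PBS and 114 and 110 CPM in dG (0.09 ± 0.04, adjusted p = 0.0499). That call was lost under 10 of 18 alternatives (adjusted p = 0.000275 to 0.727), which include library size alone (0.02), the replicate block (adjusted p = 0.0742) and leaving out any 1 library other than U937 dG replicate 2 (adjusted p = 0.0514 to 0.28).

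IFNAR2, the other chain of that receptor, did rise. It went in KG1A from 24.7 to 34.5 CPM (0.48 ± 0.06, adjusted p = 3e-08) and in U937 from 63.8 to 101 CPM (0.66 ± 0.05, adjusted p = 4.88e-15). The ratio of IFNAR1 to IFNAR2 in RPKM fell with it, from 2.84 in both KG1A PBS libraries to 2.15 and 2.09, and from 1.21 and 1.20 in U937 PBS to 0.846 and 0.775. In both lines the groups did not overlap.

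**Figure D2:**
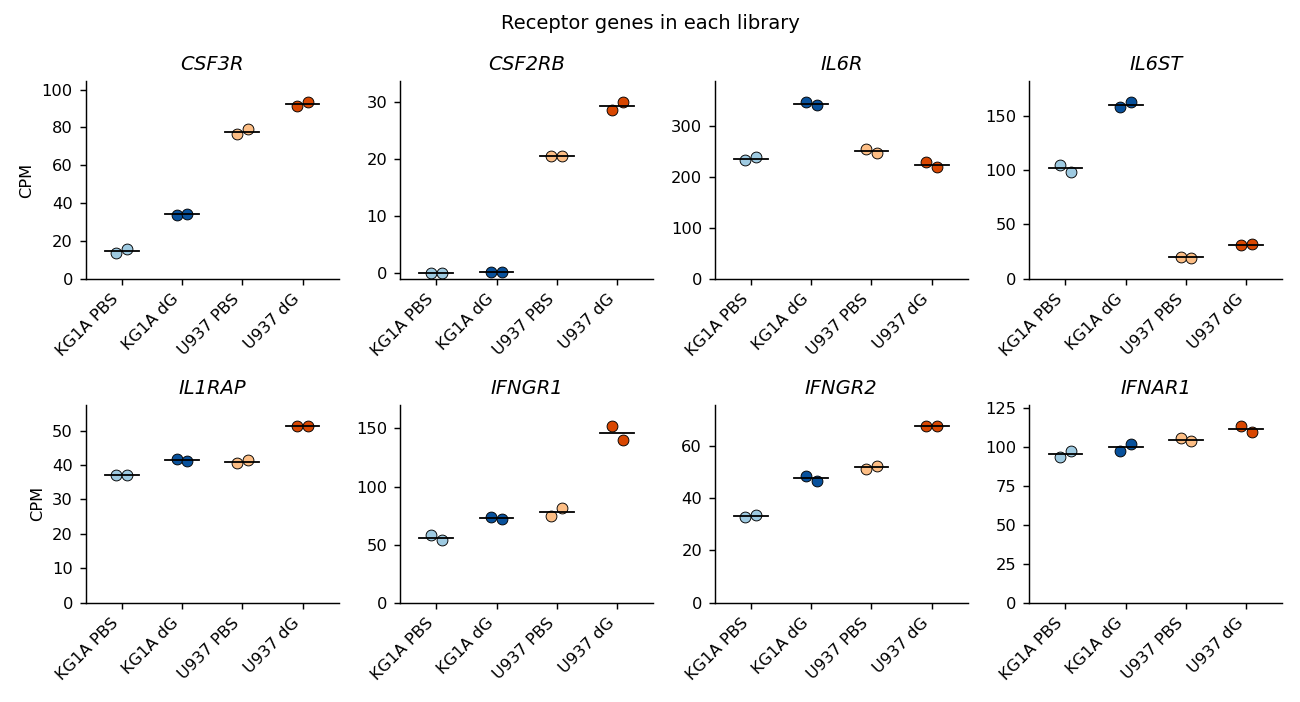
CPM of the 8 measured receptor genes (y axes differ), with 1 point per library and a line at the mean of the 2 libraries of each group. dG libraries sit above PBS libraries of the same line except for IL6R in U937, which is lower, and IFNAR1 in KG1A, where the groups overlap.

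CSF2RB passed the filter only through U937 and is left out of the KG1A count. Of the other 7 receptors tested, 6 were higher in dG in KG1A and 0 lower, while 29.6% of all genes tested were higher and 19.6% lower there (49.1% in either direction). The median log2 fold change of the 7 was 0.52, against 0.04 over all genes. In U937 7 of 8 were higher and 1 lower, while 32.4% of all genes were higher and 31.5% lower (64.0% in either direction), and the medians were 0.36 and 0.00. On the same 7 receptors as in KG1A, 6 were higher and 1 lower in U937, with a median of 0.33. These counts include weak calls: IL1RAP in KG1A was lost under 11 of 18 alternatives and IFNAR1 in U937 under 10. The share called higher lay above that of all genes in either line, but with so few genes picked by name this is a count and not a test. Without CSF2RB, the effect of dG differed between the lines for 3 of 7: the log2 fold change was greater in U937 for IFNGR1 and greater in KG1A for CSF3R and IL6R. Over all genes the signed difference, U937 minus KG1A, was called above 0 in 17.6% and below 0 in 26.4% (44.1% in all). Of the genes called for it 40.0% lay above 0, a share of 50.8% to 55.9% with DESeq2, its size factors, no filter or RPKM. In KG1A 60.2% of the calls were higher in dG, against 49.4% with RPKM at a pseudocount of 1. The fitted CSF2RB difference (-4.66) rests on the zeros in KG1A PBS and gives no direction: its call ended without KG1A PBS replicate 2 (adjusted p = 0.0700), and with RPKM the sign was the opposite (0.43 with a pseudocount of 1, adjusted p = 0.000458 by limma).

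**Figure D3:**
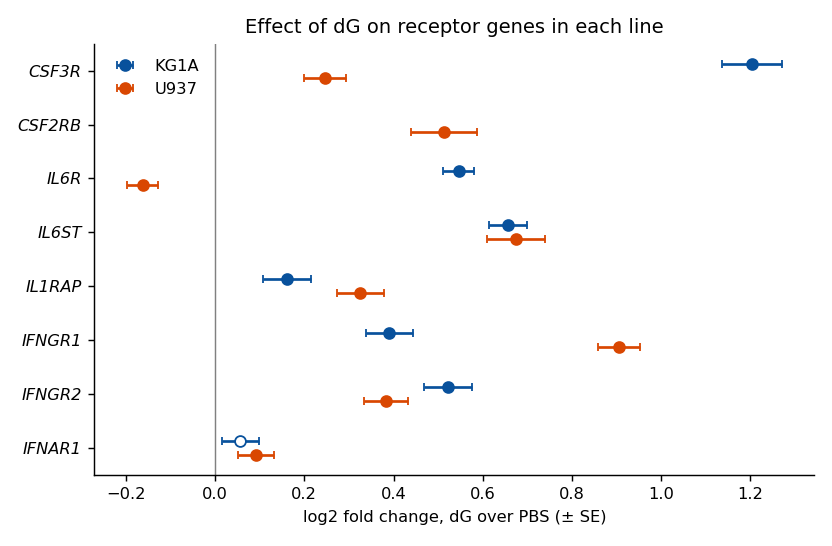
Log2 fold change of dG over PBS with its standard error for each measured receptor gene, KG1A in blue and U937 in orange; a filled point passed the test, and CSF2RB in KG1A is left out because its PBS libraries hold 0 counts. CSF3R and IL6R lie farther right in KG1A, IFNGR1 lies farther right in U937, and IL6ST is alike in position at 0.66 and 0.68.

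Before dG, the lines differed most in CSF2RB, CSF3R and IL6ST. In PBS, CSF3R was 5.24-fold higher in U937 (log2 difference 2.39 ± 0.06, adjusted p = 1.58e-29) and IL6ST 5.13-fold lower (-2.36 ± 0.05, adjusted p = 6.32e-31). IFNGR2 (0.64 ± 0.05, adjusted p = 1.19e-13) and IFNGR1 (0.49 ± 0.05, adjusted p = 7.91e-11) were moderately higher in U937. IFNAR1 (0.13 ± 0.04), IL1RAP (0.14 ± 0.05) and IL6R (0.09 ± 0.03) passed by small margins (adjusted p = 0.00461, 0.0160 and 0.0161), and each was lost under 5 or 6 of 17 alternatives (adjusted p = 0.00175 to 0.476). All 3 calls ended without KG1A PBS replicate 1 (adjusted p = 0.0819, 0.0680 and 0.143), that of IL1RAP also without KG1A PBS replicate 2 (0.0664) and that of IL6R without U937 PBS replicate 1 (0.143). In all, 7 of 8 were higher and 1 lower in U937, where 41.4% of all genes were higher and 40.8% lower (82.3% in either direction), and without CSF2RB the counts were 6 of 7 and 1. The lines are 1 source each, so this compares KG1A with U937 and no wider classes of leukaemia.

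**Figure D4:**
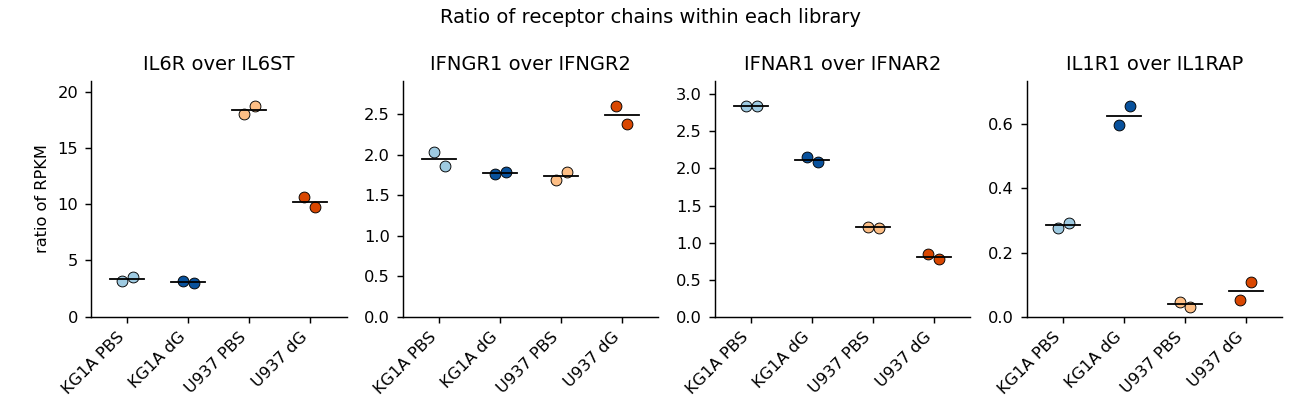
Ratio of RPKM between chains of 1 receptor in each library (points) with the group mean (line). In U937 dG, IL6R over IL6ST lies at 9.79 and 10.6 against 18.0 and 18.7 in PBS, IFNGR1 over IFNGR2 is higher, and IFNAR1 over IFNAR2 is lower in dG in both lines.

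The gene lists that follow are to be read against all genes tested, of which 29.6% were higher and 19.6% lower in KG1A and 32.4% higher and 31.5% lower in U937. Of 33 partner and related receptors, 26 were tested: in KG1A 16 were higher and 2 lower (median 0.52), and in U937 18 were higher and 2 lower (median 0.49). IL7R, the IL-7 receptor, rose in KG1A from 0.590 to 2.87 CPM (2.26 ± 0.26, adjusted p = 3.33e-09) and in U937 from 0.252 to 1.90 CPM (2.83 ± 0.35, adjusted p = 6.06e-09). IL21R rose by 1.94 ± 0.10 in KG1A and 1.98 ± 0.17 in U937, with adjusted p = 7.71e-18 and 6.92e-13. IL10RA, the IL-10 binding chain, rose in KG1A from 0.650 to 2.78 CPM (2.10 ± 0.25) and in U937 from 12.1 to 27.1 CPM (1.17 ± 0.09). IL2RB, shared by the IL-2 and IL-15 receptors, rose in U937 from 2.29 to 14.2 CPM (2.65 ± 0.13) and in KG1A from 2.73 to 5.41 CPM (0.99 ± 0.15). CSF1R, the M-CSF receptor, stood at 1.63 and 1.44 CPM in U937 PBS and dG (-0.16 ± 0.25, adjusted p = 0.614) and at 0.0388 and 0.0759 CPM in KG1A.

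Few ligands of these receptors had reads enough for a test. Of 19, 6 were tested, with 1 higher and 1 lower in KG1A (median 0.69) and 5 higher and 1 lower in U937 (median 1.53), and the group means of CSF2, CSF3, IL3, IL6 and IFNG did not exceed 0.383 CPM. The KG1A median includes IL1A and IL11, which had 0 to 3 reads in each KG1A library, and is thus no measure of size. The 1 called lower in U937 was IL18 (-0.17 ± 0.07, adjusted p = 0.0381). IL1B, a ligand of the receptor that IL1RAP completes, rose in KG1A from 44.4 to 92.5 CPM (1.06 ± 0.05, adjusted p = 2.87e-19) and in U937 from 1.1 to 7.94 CPM (2.84 ± 0.16, adjusted p = 7.54e-18). IL1RN, the IL-1 receptor antagonist, rose in U937 from 4.72 to 14.7 CPM (1.64 ± 0.11), as did IL1A, from 0.0869 to 0.935 CPM (3.34 ± 0.52, adjusted p = 7.72e-07). OSM, oncostatin M, fell in KG1A from 18.4 to 15.1 CPM (-0.28 ± 0.08, adjusted p = 0.00512). That call ended under 2 of 18 alternatives, DESeq2 (adjusted p = 0.0936) and the fit without KG1A dG replicate 2 (-0.20). In U937 OSM was low and went the other way, from 0.684 to 1.26 CPM (0.87 ± 0.29, adjusted p = 0.00958). The difference of its effect between the lines was called too (1.15, adjusted p = 0.00201). IL11, another ligand of an IL6ST receptor, rose in U937 from 0.214 to 0.577 CPM (1.42 ± 0.50, adjusted p = 0.0125), a call that ended under 3 of 18 alternatives (adjusted p = 0.00626 to 0.146), also without U937 PBS replicate 1 (0.123) or U937 dG replicate 2 (0.133).

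All 11 JAK and STAT genes were tested, with 7 higher and 2 lower in KG1A (median 0.18) and 8 higher and 2 lower in U937 (median 0.54), where all genes had 29.6% higher and 19.6% lower in KG1A, 32.4% and 31.5% in U937. STAT2, a STAT of the type I interferon receptor, rose by 0.69 ± 0.07 in KG1A and 1.61 ± 0.05 in U937. JAK1, used by the IL-6 and interferon receptors, rose by 0.45 ± 0.03 in KG1A and 0.30 ± 0.03 in U937. JAK2, used by CSF3R, CSF2RB and IFNGR2, changed by 0.17 ± 0.05 in KG1A (adjusted p = 0.00683, lost under 9 of 18 alternatives, 0.0056 to 0.336, also at 0.111 without either U937 dG replicate) and by 0.63 ± 0.07 in U937 (adjusted p = 7.54e-10). JAK3 rose by 0.51 ± 0.04 in KG1A and 0.54 ± 0.06 in U937.

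STAT3, the chief STAT of the IL-6 and G-CSF receptors, rose by 0.21 ± 0.04 in KG1A (adjusted p = 4.98e-06, lost under 2 of 18 alternatives, 1.75e-06 to 0.0845) and by 0.76 ± 0.04 in U937 (adjusted p = 8.39e-18). TYK2, the IFNAR1 kinase, rose by 0.18 ± 0.04 in KG1A (lost under 4 of 18 alternatives, 0.000153 to 0.152) and by 0.60 ± 0.04 in U937. STAT5A, a STAT of the CSF2RB receptors, went the other way, from 139 to 113 CPM in KG1A (-0.29 ± 0.04, adjusted p = 1.6e-07) and from 66.8 to 53.9 CPM in U937 (-0.31 ± 0.05, adjusted p = 8.07e-07). STAT5B was at 0.02 ± 0.04 in KG1A (adjusted p = 0.713), a value whose sign changed with the scaling (-0.043 with library size alone), and at -0.12 ± 0.05 in U937 (adjusted p = 0.0221). That call was lost under 9 of 18 alternatives (adjusted p = 0.000462 to 0.986), including those without U937 PBS replicate 1 (0.146), U937 dG replicate 1 (0.986) or U937 dG replicate 2 (0.0997).

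Feedback inhibitors of these receptors rose in 15 of 22 and fell in 1 in KG1A (median 0.28), and rose in 15 and fell in 3 in U937 (median 0.29). Over all genes 29.6% rose and 19.6% fell in KG1A, and 32.4% rose and 31.5% fell in U937. SOCS3, which binds IL6ST and CSF3R and blocks JAK activity there, rose in U937 from 0.818 to 7.66 CPM (3.21 ± 0.18, adjusted p = 6.63e-18). In KG1A it was at 6.57 and 8.10 CPM (0.31 ± 0.11, adjusted p = 0.0243), lost under 10 of 18 alternatives (adjusted p = 0.0137 to 0.205), including those without KG1A PBS replicate 1 or 2, KG1A dG replicate 1 or either U937 dG replicate (0.0644 to 0.123). SOCS1, an inhibitor of interferon receptor signalling, rose in U937 from 0.319 to 3.06 CPM (3.18 ± 0.30, adjusted p = 1.48e-11) and in KG1A from 1.60 to 3.18 CPM (1.01 ± 0.21, adjusted p = 1.03e-04). The inhibitors best known as STAT5 targets did not follow in U937: SOCS2 fell there from 12.0 to 3.75 CPM (-1.68 ± 0.12, adjusted p = 2.28e-15) and CISH was at 10.1 and 10.2 CPM (0.01 ± 0.10, adjusted p = 0.934). In KG1A, CISH rose by 0.40 ± 0.05 (adjusted p = 5.42e-08) and SOCS2 was at 0.15 ± 0.07 (adjusted p = 0.0601). SH2B3, an inhibitor of JAK2 known as LNK, rose by 0.67 ± 0.04 in KG1A and 0.42 ± 0.05 in U937. USP18, which binds IFNAR2 and limits its signal, rose in U937 by 0.91 ± 0.14. DUSP6, an ERK phosphatase, rose in KG1A by 1.22 ± 0.04 but fell in U937, from 37.5 to 29.3 CPM (-0.36 ± 0.06, adjusted p = 5.48e-07). PTPN6, the phosphatase SHP-1, rose in KG1A from 1.57 to 2.36 CPM (0.62 ± 0.20, adjusted p = 0.00984), lost under 5 of 18 alternatives (adjusted p = 0.00166 to 0.3), including those without KG1A PBS replicate 2 (0.160) or KG1A dG replicate 1 (0.300).

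Adaptors and kinases of the IL-1 receptor were called at rates near those of all genes (49.1% in KG1A and 64.0% in U937), with 6 higher and 2 lower of 13 tested in KG1A and 7 higher and 3 lower in U937 (medians 0.08 and 0.13). IRAK2, a kinase that prolongs IL-1 signals, rose in KG1A from 1.97 to 3.46 CPM (0.82 ± 0.18) and in U937 from 20.9 to 54.1 CPM (1.37 ± 0.07). IRAK3, an inhibitory member, rose in KG1A by 0.37 ± 0.04, as did SIGIRR, an inhibitory receptor of the family, by 0.68 ± 0.08. SIGIRR also rose in U937 (0.29 ± 0.095, adjusted p = 0.00761), while IRAK3 was not called there (0.04 ± 0.05, adjusted p = 0.505). MYD88, the adaptor itself, fell in U937 from 59.9 to 38.6 CPM (-0.64 ± 0.06, adjusted p = 8.84e-13), while TRAF6 rose there by 0.59 ± 0.07.

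Targets of the interferon gamma pathway were higher in 14 and lower in 0 of 22 in KG1A (median 0.51) and higher in 19 and lower in 2 in U937 (median 0.98), where the shares over all genes were 29.6% and 19.6% in KG1A and 32.4% and 31.5% in U937. GBP5, an interferon-induced GTPase, rose in KG1A from 121 to 255 CPM (1.08 ± 0.04), and WARS, a tRNA synthetase induced by interferon gamma, rose from 122 to 239 CPM (0.97 ± 0.04). ICAM1, an adhesion molecule, rose there from 6.70 to 23.6 CPM (1.82 ± 0.08). In U937 the largest rises were in GBP2 (0.143 to 4.88 CPM, 5.09 ± 0.30), GBP1 (3.58 ± 0.59), CXCL11 (3.54 ± 0.49) and CXCL10 (0.590 to 5.29 CPM, 3.19 ± 0.25), where CXCL10 and CXCL11 are chemokines. Against the same shares, type I interferon targets were higher in 11 and lower in 1 of 18 in KG1A (median 0.47), with IRF7 at 1.15 ± 0.17 and IFIT3 at 0.90 ± 0.06. In U937 14 were higher and 1 lower (median 1.5), with IRF9, a DNA-binding partner of STAT2, rising from 0.601 to 6.24 CPM (3.38 ± 0.21) and IFI6 from 21.2 to 156 CPM (2.88 ± 0.05). The group means of the ligand transcripts did not exceed 0.0356 CPM for IFNG and 0.179 CPM for IFNB1. In single libraries IFNG reached 0.0431 CPM (U937 dG replicate 1) and IFNB1 0.323 CPM (KG1A dG replicate 2). The KG1A libraries held 0 and 2 reads of IFNB1 in PBS and 1 and 8 in dG, too few for a test.

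Targets of STAT5 and STAT3 were higher in 11 and lower in 2 of 19 in KG1A (median 0.47) and higher in 11 and lower in 4 in U937 (median 0.39), against 29.6% higher and 19.6% lower over all genes in KG1A and 32.4% and 31.5% in U937. PIM1, a survival kinase, rose in U937 from 59.9 to 397 CPM (2.73 ± 0.04) and less in KG1A, from 303 to 420 CPM (0.47 ± 0.03). VEGFA rose in both lines (1.11 ± 0.07 in KG1A and 1.98 ± 0.03 in U937). ID1 rose in KG1A from 6.89 to 17.9 CPM (1.39 ± 0.11) and PIM2 by 0.82 ± 0.05. Several members of this list answer to other pathways as well, and MYC, listed here as a STAT3 target, fell in U937 by 3.51 on the log2 scale. Of 10 myeloid transcription factors tested, 5 were called in KG1A, near the 49.1% of all genes, with 5 higher and 0 lower (median 0.27), GFI1 (0.60 ± 0.05) and GATA2 (0.31 ± 0.04) among them. In U937 5 were higher and 4 lower (median 0.13), against 64.0% of all genes called: CEBPB rose from 61.7 to 232 CPM (1.91 ± 0.05) and KLF4 from 9.15 to 19.6 CPM (1.09 ± 0.10), while MYB fell (-0.27 ± 0.03). In KG1A MYB was called higher (log2 fold change 0.21, adjusted p = 4.77e-07), a call lost under 1 of 18 alternatives (limma on RPKM with a pseudocount of 0.1, adjusted p = 0.0508).

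**Figure D5:**
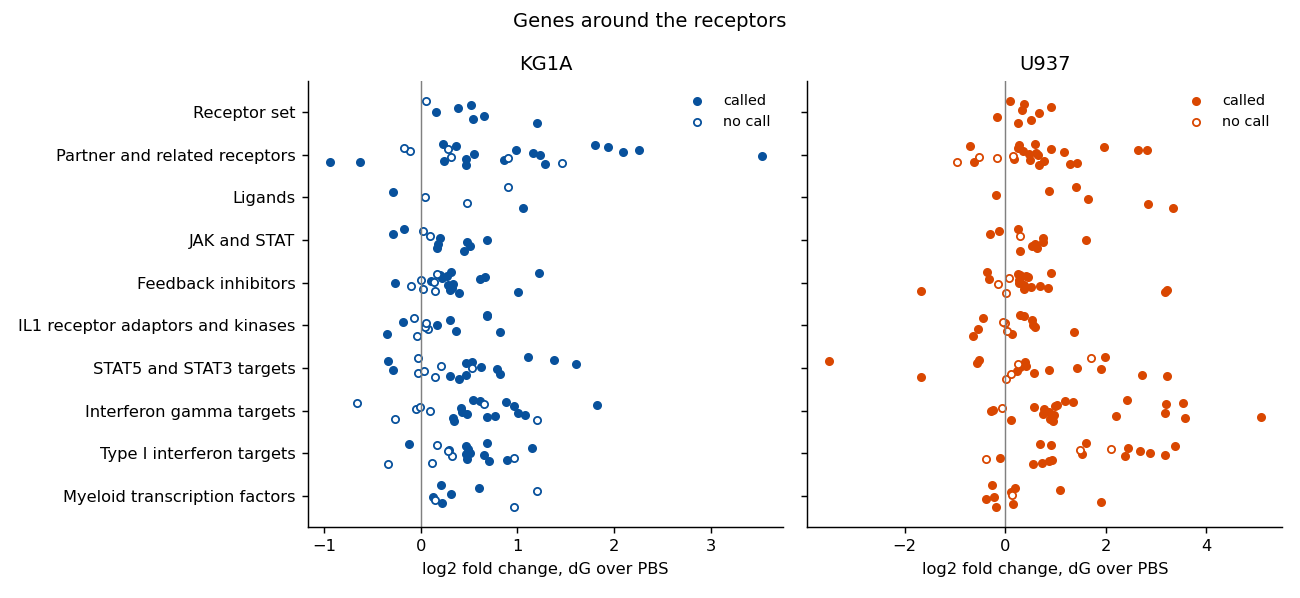
Log2 fold change of dG over PBS in KG1A (left) and U937 (right) for the tested genes of each list, leaving out genes with 0 counts in a group of that line; filled points passed the test and open points did not. Most filled points of the interferon target lists lie right of 0 in both lines, and those of U937 reach farther.

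Genes with the most similar pattern were sought over the 8 libraries among 9954 genes by Pearson's r of log2 CPM, given without a p since the libraries fall into 4 groups and share the contrast between the lines. CSF3R was followed most closely by SIGLEC6 (r = 0.999), ENO2 (0.999) and ALOX5AP (0.998), and 582 genes exceeded 0.95. SIGLEC6, a sialic acid receptor, rose by 3.77 in KG1A and 0.59 in U937 on the log2 scale, and ALOX5AP, which serves leukotriene synthesis, by 1.95 and 0.63. IL6R had the least common pattern, with 28 genes over 0.95, led by SLC25A36 (0.991), KDM5B (0.989) and CDC37 (0.987). IL6ST had the most common one, with 1329, led by NUMA1 (0.9996), CASP4 (0.9993) and NEK7 (0.9993). The nearest genes were CHMP5 (0.997) for IFNGR1, PPP1R18 (0.998) for IFNGR2, CEP85 (0.999) for IL1RAP and CCDC77 (0.981) for IFNAR1.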

How the data were processed

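The authors deposited whole-number read counts per gene and RPKM values for 8 libraries. bcl2fastq 2.18.0.12, TopHat2, HTSeq 0.11.2 and hg38 (GRCh38) are named, without roles, in the submitters' processing notes; annotation release, strand setting and the handling of reads with several matches are not given in the sources used here. The deposited RPKM equalled counts divided by exon length and a TMM-scaled library size. Groups came from the sample titles. Counts were tested with edgeR 4.0.16 (R 4.3.3; filterByExpr, TMM, quasi-likelihood F test, two-sided) in 1 fit with 4 group means and 4 residual degrees of freedom, and p-values were adjusted (Benjamini-Hochberg) over 18314 genes; the code was tested on simulated data. Alternatives were other scalings, no filter, DESeq2 1.42.0, limma 3.58.1 on log2 (RPKM + 1 or 0.1), single-line fits, a replicate block and leaving out each library. Named genes were the receptors, those among the up to 4 called genes per list and line with the largest change, 15 fixed pathway genes, and genes among the 3 closest by correlation. SPI1, IL18, untested ligands and marker genes were named outside that rule, with their values known. The members and lists were chosen with earlier results of these data known. The floor of 3 counts covers only the counting error of the zeros in KG1A PBS. Results of some genes within the lists are not reported here.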

Additional observations from a re-analysis of the deposited data

Results flagged for a closer look

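The effect of dG differed between the lines in 4 of 8 receptor genes by edgeR's test of the difference (U937 effect minus KG1A effect, log2, Benjamini-Hochberg over all genes). Of all genes tested, 44.1% were called for this difference, a share near that of the receptors. For CSF3R the difference was -0.96 (adjusted p = 3.32e-12), with 2 of 2 dG libraries above both PBS libraries in either line. For IL6R it was -0.71 (adjusted p = 7.69e-15), with the dG libraries higher in KG1A and lower in U937. For IFNGR1 it was 0.51 (adjusted p = 1.1e-07), with dG higher in both lines. For CSF2RB it was -4.66 (adjusted p = 0.00868), a fitted value that rests on 0 counts in KG1A PBS against 9 in KG1A dG and is no measure of size.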

How the results depend on the processing

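With 2 libraries per group, small shifts of scale decide the calls of weakly changed genes; those of CSF3R, IL6ST, IFNGR1 and IFNGR2 in both lines, of IL6R in KG1A and of IL1RAP and CSF2RB in U937 held under every alternative run. For the difference between the lines, another filter, DESeq2, RPKM or leaving out a U937 dG library moved the median of all genes by 0.11 to 0.124, from -0.098. Over single genes, 485 of the 559 alternative values of the receptors stayed on the same side of the threshold in the same direction, 56 crossed it and 18 changed direction. The counts here include CSF2RB; leaving it out was chosen after seeing the data. The count of receptors lower in U937 was 1, but 0 with DESeq2's size factors, DESeq2 and each RPKM setting, and 0 to 1 with 1 library left out (0 without U937 dG replicate 2). The count with a larger effect in U937 was 1, but 2 with DESeq2's size factors, no filter, DESeq2 and RPKM with a pseudocount of 0.1, 3 with RPKM and a pseudocount of 1 (filtered or not), and 1 to 3 with 1 library left out (2 without U937 dG replicate 1, 3 without replicate 2). The count higher in U937 than in KG1A in PBS was 7, but 4 with no filter and with filtered RPKM at either pseudocount, and 4 to 7 with 1 library left out (4 without KG1A PBS replicate 1). Direction changed for the CSF2RB difference (0.431 with RPKM at a pseudocount of 1, filtered or not, and 0.150 at 0.1), the IL6ST difference (-0.008 with RPKM at a pseudocount of 1, and -0.040 to 0.171 with 1 library left out) and the IFNGR2 difference (0.001 with RPKM at a pseudocount of 1). It also changed for IFNAR1 in KG1A (-0.008 with library size alone, -0.011 with no filter, -0.003 with KG1A alone, -0.008 and -0.009 with RPKM, -0.010 to 0.088 with 1 library left out) and STAT5B in KG1A (-0.043, -0.046, -0.039, -0.044 and -0.047 likewise, -0.045 to 0.035 with 1 library left out). In U937 it changed for CISH (-0.061 with library size alone, -0.027 to 0.076 with 1 library left out) and CSF1R (-0.384 to 0.045 with 1 library left out). The cause was not tested.

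Replicate numbers do not pair the libraries by label, and same-numbered deviations correlated at -0.239 in KG1A and 0.026 in U937. With the replicate block 8742 genes were called in KG1A and 11530 in U937, against 8994 and 11712, and the receptors called were 7 higher in KG1A, and 6 higher and 1 lower in U937. With KG1A numbers crossed, an alternative chosen after seeing the data, 9115 genes were called in KG1A, with 7 receptors higher. At these depths 1 count is far below the level of the receptors other than CSF2RB in KG1A.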
